A study of Mus musculus with 2 samples.

Results

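Keratins are the intermediate filament proteins of epithelial cells, and 10 of them were followed here in mouse fetal palate: Krt4 and Krt13 of oral mucosa, Krt5, Krt14 and Krt15 of the basal layer, Krt1 and Krt10 of cornified epithelium, and Krt8, Krt18 and Krt19 of simple epithelium. They were taken by name, through every probe set that the platform annotation gives to exactly 1 of these genes, which were 17 of the 34945 probe sets with a single gene, or 10 of 18193 genes. The choice was made with earlier results of these data known. RNA came from BALB/c palate at E18.5 (embryonic day). The study hybridised 1 Affymetrix array for the wild type and 1 for palate labelled null for Myf5 and MyoD together, the transcription factors (the latter with gene symbol Myod1) that commit cells to skeletal muscle. The labels give the second genotype as BALB/c Myf5:Myod null, name no removed exon, and do not say whether a sample was a single fetus or a pool. The question behind the design was what skeletal muscle contributes to the palate. No driver or tissue that would restrict the null alleles to part of the animal is named in the labels.

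With 1 array per genotype no test was possible, and every difference below is between these 2 samples. The value given for a probe set is its MAS5 signal after both arrays were brought to a common level, in arbitrary units. Signals under 287, the 40th percentile of all values, were set to that floor before log2 was taken, and a fold against such a value is written as "at least". Where a gene had several probe sets, the one of highest mean log2 signal stood for it. Genes reaching 658, the 60th percentile, on at least one of the arrays are called measured, and there were 11238 of them. The only spread that these arrays hold is that between different probe sets of the same gene, whose log2 ratios had a pooled SD of 0.51 (10190 probe sets of 4030 genes). This SD holds what probes and isoforms add, and nothing of the variation from animal to animal.

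Signals of the targeted genes differed by less than that SD: Myod1 had 1938 in wild type against 1663, and Myf5, not measured, had 517 and 531. For that reason the second array is named only by its label, double null. Listed muscle markers were lower on it (6 of 6, median log2 ratio -0.89) and neuronal markers higher (6 of 6, median 1.35). Of 12 listed genes of palatal mesenchyme 11 had a probe set and 8 were measured, with a median of -0.08 and Msx1 the lowest at -1.89. Shox2 had 0.14 by its brightest probe set and -1.63 by its other, and Prrx1 had -0.24 and -0.23. Osr2 (379 and 45.6), Osr1 and Tbx22 were not measured. Transcripts of the sex chromosomes were unequal too, with Xist at 33813 and 16947 and Eif2s3y of the Y chromosome at 10.8 and 2794. On the array labelled double null both transcripts thus lay above the measured level of 658. Sex, animal, dissection and genotype cannot be told apart in this design.

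Keratin filaments are built from pairs of an acidic type I chain and a basic type II chain, and the pair changes with the layer and the kind of epithelium. Proliferating basal cells of stratified epithelia make Krt5 with Krt14, and Krt15 is a further type I chain of the basal layer. Cells that leave the basal layer switch to Krt1 with Krt10 where the surface cornifies and to Krt4 with Krt13 where it stays soft and moist. Single-layered epithelia, ducts and glands make Krt8 with Krt18, often with Krt19. The palate carries oral epithelium below and nasal epithelium above. In RNA from a tissue, fewer cells of a type and less RNA per cell cannot be told apart.

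The sequences just before the starts of 4 members are printed here as the members with an entry whose differences ran from the largest, in Krt13, through Krt10 and Krt5, to the smallest, in Krt18. Krt4, which differed more than Krt13, had no entry. They are the 250 bases upstream of the start from RefSeq (GRCm38.p6), written 5′ to 3′ on the gene's strand. Capitals mark the letters CACCC on either strand (GGGTG on the reverse) and ATAAA where it begins 20 to 40 bases before the start on the gene's strand.
Krt13 (chr11:100121567-100121816, minus strand): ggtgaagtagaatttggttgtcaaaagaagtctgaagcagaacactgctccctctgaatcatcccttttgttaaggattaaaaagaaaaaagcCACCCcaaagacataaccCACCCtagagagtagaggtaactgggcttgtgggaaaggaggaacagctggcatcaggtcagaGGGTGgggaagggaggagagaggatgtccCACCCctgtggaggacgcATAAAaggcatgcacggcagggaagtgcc
Krt10 (chr11:99389365-99389614, minus strand): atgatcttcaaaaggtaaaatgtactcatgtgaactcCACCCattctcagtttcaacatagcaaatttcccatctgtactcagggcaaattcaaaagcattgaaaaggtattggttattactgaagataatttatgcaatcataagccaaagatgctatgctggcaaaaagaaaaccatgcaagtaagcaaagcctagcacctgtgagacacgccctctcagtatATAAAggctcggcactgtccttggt
Krt5 (chr15:101712906-101713155, minus strand): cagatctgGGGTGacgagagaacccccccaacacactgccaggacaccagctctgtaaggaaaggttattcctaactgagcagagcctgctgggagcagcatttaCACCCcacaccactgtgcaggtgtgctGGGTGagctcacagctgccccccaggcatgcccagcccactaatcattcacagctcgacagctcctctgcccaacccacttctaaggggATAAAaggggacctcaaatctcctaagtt
Krt18 (chr15:102027966-102028215, plus strand): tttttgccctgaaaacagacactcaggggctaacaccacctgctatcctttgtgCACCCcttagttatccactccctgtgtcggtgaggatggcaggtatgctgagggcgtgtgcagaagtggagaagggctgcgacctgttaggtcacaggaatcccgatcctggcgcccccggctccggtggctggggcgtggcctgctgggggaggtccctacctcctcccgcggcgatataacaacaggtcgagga
Entries were matched for 6 of the 10 members (Krt13, Krt5, Krt14, Krt10, Krt8 and Krt18). For Krt13 the table holds 2 starts, and the first is shown. CACCC, the core of the element read by Sp and Klf factors, was found in all 6 and in 52.0% of 32841 windows of the same length. ATAAA, the core of the TATA element that sets the start of transcription, lay 20 to 40 bases before the start in 3 of the 6 (29 bases before it in Krt13 and Krt5 and 25 in Krt10) and in 4.25% of all windows. The letters TGANTCA, which are the AP-1 element where N is C or G, were searched on both strands. They were present in Krt13 alone of the 6 and in 6.75% of all windows. In the Krt13 window shown they read TGAATCA, which is not that element. The window of the other Krt13 start, not shown, held 2 matches, each reading TGACTCA, which is that element. GCCNNNGGC, the AP-2 element, on both strands, was present in Krt18 alone of the 6 and in 13.7% of all windows. These matches are descriptions of letters and not of bound sites.

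All 10 keratins were measured, and all 10 had a log2 ratio below 0 on the array labelled double null, against 43.7% of all measured genes. Krt18 turned to 0.25 with scaling on the median housekeeping signal (12 genes such as Actb and Hprt). Under that scaling the median of all measured genes was 0.40. The median log2 ratio over the 10 was -0.69, or 1.61-fold lower, where that of all measured genes was 0.07. Of the 10 members 2 were at least 2-fold lower, Krt4 and Krt13, against 4.22% of measured genes. None was at least 2-fold higher, against 3.51%. Among the 7921 genes whose brighter array reached the 75th percentile, which include all 10 members, 3.07% were at least 2-fold lower. Krt4 and Krt13 were also past 3-fold, against 1.17% of measured genes, but Krt13 was not with scaling on the median housekeeping signal (log2 ratio -1.28) or with an offset of 100 in place of the floor (-1.56). At 1.5-fold the count of lower members was 7, against 11.7% of measured genes. In 7 of the 10 the difference exceeded the SD of 0.51 between probe sets of a gene, and in Krt8, Krt18 and Krt19 it did not. Krt19 fell short narrowly, with a log2 ratio of -0.511 where the SD was 0.515, and 13.8% of measured genes had a lower ratio than Krt19.

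**Figure D1:**
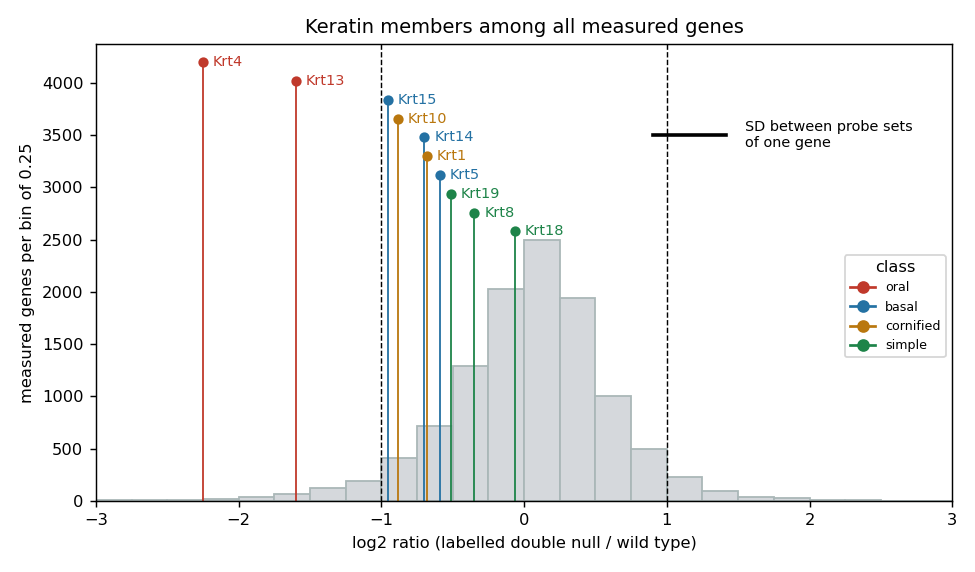
Histogram of log2 ratios (array labelled double null over wild type) of 11238 measured genes in bins of 0.25, with a stem for each keratin coloured by class. Stem heights only separate the names, dashed lines mark 2-fold and the bar shows the SD between probe sets of one gene (0.51); Krt4 and Krt13 lie beyond 2-fold, the other 8 between -0.96 and -0.07, and Krt18 alone changes sign (0.25) with scaling on the median housekeeping signal.

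The oral mucosa pair differed most. Krt4, the type II chain of non-cornified oral and oesophageal epithelium, gave 19880 in wild type against 4181 in the sample labelled double null, 4.75-fold lower. Its second probe set gave 7814 and 1714, 4.56-fold lower. The wild-type array was the high one in both probe sets, and their log2 ratios of -2.25 and -2.19 differed by far less than 0.51. Only 46 of the 11238 measured genes (0.409%) had a lower log2 ratio than Krt4.

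Krt13, the type I partner of Krt4, had 7146 and 2358, 3.03-fold lower. A second probe set gave 1122 and 159, at least 3.91-fold lower since the second value lies under the floor. The third was dim, with 586 and 372, and was not measured, with a log2 ratio of -0.66. All 3 probe sets were thus lower on the array labelled double null, although the dimmest by 1.58-fold only. Of all measured genes 128 (1.14%) had a lower log2 ratio than Krt13. The partners differed from each other by 0.65 on the log2 scale (-2.25 for Krt4 and -1.60 for Krt13), which is 1.26 times the SD between probe sets. The brightest probe set of Krt4 and both dimmer ones of Krt13 carry the suffix of probe sets that can read related transcripts, while the second of Krt4 and the brightest of Krt13 do not and gave 4.56-fold and 3.03-fold.

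**Figure D2:**
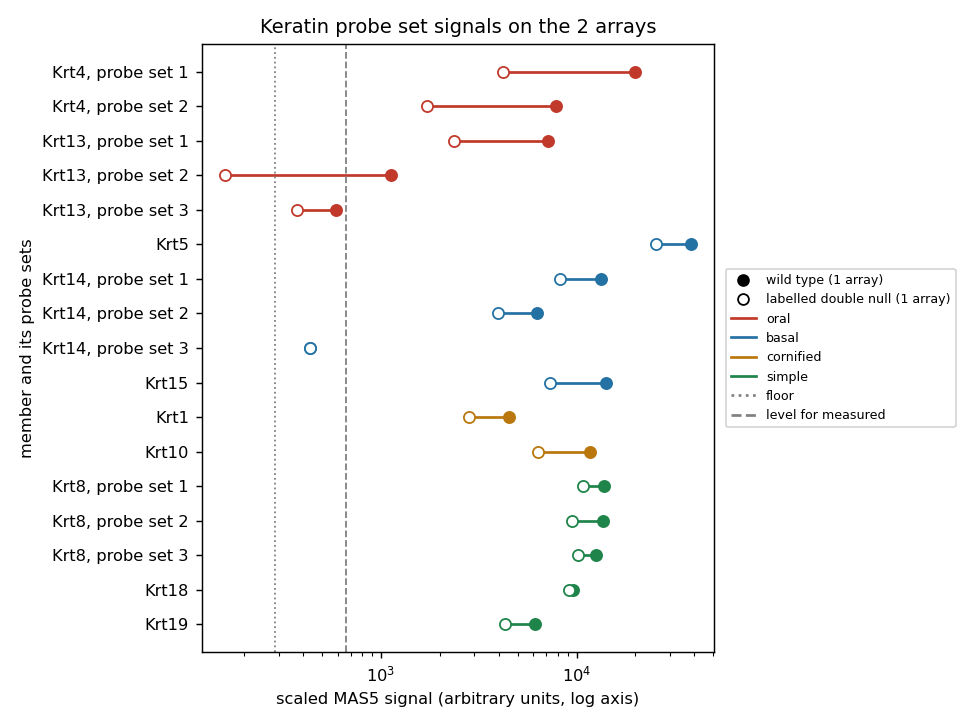
Scaled MAS5 signal (log axis) of each of the 17 probe sets of the 10 keratins on the wild-type array (filled) and the array labelled double null (open), 1 array each, with the floor (dotted) and the minimum for a measured gene (dashed). The 4 measured oral probe sets (Krt4 and Krt13) show the longest lines, the third probe set of Krt14 has overlapping points (433 and 431), and those of Krt18 nearly meet (9598 and 9174).

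The basal keratins were lower by less. Krt5, the type II chain of all basal keratinocytes, had 38392 and 25534, a log2 ratio of -0.59, by its only probe set. Krt14, its type I partner, had 13388 and 8248, 1.62-fold lower, and a second probe set gave 6274 and 3973, 1.58-fold lower. Krt5 and Krt14 differed from each other by 0.11 in log2 ratio, or 0.214 times the SD between probe sets, an amount by which these arrays do not separate the partners. The third probe set of Krt14 was dim, not measured and level (433 and 431). Krt15, a type I chain of basal cells in oral and hair-bearing epithelium, had 14111 and 7274, 1.94-fold lower. It was the lowest of the 8 members outside the oral pair and the nearest to 2-fold. It passed 2-fold with the signals as deposited, with quantile normalization (log2 ratio -1.08) and with scaling on the median housekeeping ratio.

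The cornified pair lay close to the basal keratins. Krt1, the type II chain of the suprabasal layers of epidermis and hard palate, had 4503 and 2811, 1.60-fold lower. Krt10, its type I partner, had 11755 and 6371, 1.84-fold lower. Both genes had a single probe set each, both were higher in wild type, and their log2 ratios (-0.68 and -0.88) differed by 0.20. They lay within the span of the basal members (-0.96 to -0.59), and the class medians were -0.78 and -0.70. Both oral keratins lay below every basal and cornified one, with a class median of -1.92.

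The simple keratins differed least. Krt8, the type II chain of simple epithelia, had 13817 and 10849, 1.27-fold lower, and its other 2 probe sets were 1.44-fold (13581 and 9449) and 1.23-fold (12547 and 10195) lower. All 3 probe sets of Krt8 carry a suffix. In the brightest, as in that of Krt10, it marks several transcripts of 1 gene, and in the other 2 it marks related transcripts. Krt18, the type I partner of Krt8, had 9598 and 9174, a log2 ratio of -0.07. Krt18 was the member nearest to no difference, and 38.5% of measured genes had a lower ratio. Krt19, a small type I chain of ducts, simple epithelia and some basal cells, had 6103 and 4282, 1.43-fold lower. The class median was -0.35. All 3 simple keratins (-0.51 to -0.07) lay above all 3 basal (-0.96 to -0.59) and both cornified ones, and how far such an order would repeat in other animals is not known.

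The order of the 10 differences was Krt4, Krt13, Krt15, Krt10, Krt14, Krt1, Krt5, Krt19, Krt8 and Krt18, from the lowest log2 ratio to the highest. Of these, Krt13 to Krt15 (-1.60 and -0.96) and Krt4 to Krt13 were the steps larger than the SD between probe sets, and from Krt15 to Krt18 no step between neighbours was. Of the 15 measured probe sets of the members, 15 were below 0, against 43.9% of all 17407 measured probe sets, and 4 were at least 2-fold lower, against 4.52%. These 4 were the measured probe sets of Krt4 and Krt13.

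Other epithelial genes were followed through lists. The list of other epithelial keratins had 16 genes with a probe set, of which 8 were measured. Their median log2 ratio was -0.63 and 6 of the 8 were below 0. Krt79, a type II keratin of hair follicle and gland ducts, was the 1 gene at least 2-fold lower (683 and 269, a bound of 2.38-fold). With scaling on the median housekeeping signal Krt79 was not among the 7 measured genes of the list. Krt23 had a log2 ratio of -0.75 and Krt7, a type II chain of ducts, -0.70. Krt6a, an inducible keratin of oral epithelium and nail, had -0.45 by its brightest probe set, while its other 2 gave -1.92 and -1.05. Krt6b had 0.16 and Krt80 0.38, the only measured genes of the list above 0.

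Epithelial genes that are not keratins were centred near the median of all genes. In a list of 16 measured genes that mark epithelium in general, 9 were above 0 and 7 below, none was past 2-fold, and the median was 0.03. Cdh1, E-cadherin of epithelial junctions, had 10491 and 10231. Cldn4, Cldn7 and Elf3 were the lowest (-0.64, -0.47 and -0.41). Epcam, Spint2 and Marveld3 were the highest (0.85, 0.64 and 0.43), while the other probe sets gave -1.42 for Epcam (17978 and 6723) and 0.03 for Spint2. The median of this list followed the scaling (between -0.10 and 0.37) but stayed within 0.05 of the median of all measured genes under each of the 5 scalings, while that of the 10 keratins stayed between -0.82 and -0.75 relative to it.

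**Figure D3:**
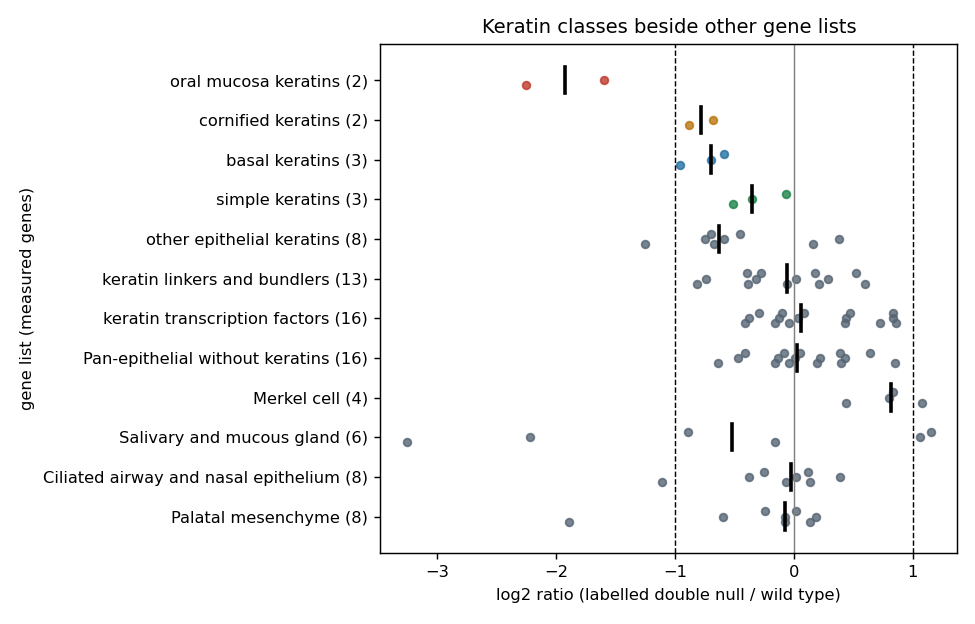
Log2 ratios (array labelled double null over wild type) of the measured genes of each list, 1 point per gene by its brightest probe set, with the list median as a black bar and 2-fold as dashed lines; the number of measured genes is in brackets. The 4 keratin classes have medians of -1.92, -0.78, -0.70 and -0.35, while the lists of keratin transcription factors and of general epithelial genes are centred near 0 (0.06 and 0.03), and Krt18, the simple keratin nearest to 0, turns positive (0.25) with scaling on the median housekeeping signal.

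Transcription factors that act on stratified epithelium and its keratins were centred on 0.06 (median). By their brightest probe sets 9 of 16 measured genes lay above 0 and none was past 2-fold. Trp63, the p63 factor that maintains basal cells and drives Krt5 and Krt14, had 9893 and 10532. Klf4, which acts in the upper layers, had 12111 and 11763. The highest were Klf5 (0.86), Elf5 (0.84) and Tfap2c (0.83), and the lowest Elf3 (-0.41), Hes1 (-0.37) and Cebpa (-0.29). Other measured probe sets gave 0.54 for Klf5, 0.10 for Tfap2c and 0.57 and 0.85 for Ehf. They gave -0.45 for Klf4, -0.52 for Tfap2a and -1.12 for Pitx1, of which only Pitx1 was past 2-fold lower. Elf3 and Grhl2 stand in this list and in that of general epithelial genes. With scaling on the median housekeeping signal 4 of 17 passed 2-fold higher, as did 10.2% of all measured genes under that scaling.

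Proteins that anchor and bundle keratin filaments were centred on -0.06 (median); 7 of 13 measured genes lay below 0 and none was past 2-fold. Pkp3, a desmosomal plakophilin, had a log2 ratio of -0.81, Evpl, envoplakin, -0.73, and Dsp, desmoplakin, -0.39 with 0.24 in its other probe set. Ppl, periplakin, had 0.60, Pkp2 0.53 with 0.04 in its other probe set, and Dst 0.28 with -0.29 and -0.26 in its others. Envoplakin and periplakin, which work as partners, thus lay on opposite sides of 0.

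Markers of other epithelial cells that make keratins were read beside the members, and their part in the keratin differences was not tested. In the ciliated airway and nasal list 8 of 8 genes were measured, the summed signal was 24300 and 22209 and the median -0.02. Tekt2 alone of these was at least 2-fold lower (1380 and 640), though not with scaling on the median housekeeping signal, and 4 of the 8 lay above 0. In the salivary and mucous gland list 6 of 7 genes with a probe set were measured, with a median of -0.52 and 4 of 6 below 0. Their summed signal was 13168 and 17661, and Car6 alone went from 6598 to 14710. There Smgc was at least 9.57-fold lower, Bpifa2 at least 4.66-fold, Car6 2.23-fold higher and Dcpp1 2.09-fold higher, Bhlha15 had a log2 ratio of -0.89, and Prol1 was under the floor on both arrays. In the Merkel cell list, touch cells that use Krt8, Krt18 and Krt20, 4 of 7 were measured (Sox2, Isl1, Insm1 and Piezo2), all above 0, with a summed signal of 16880 and 26844. Those 4 are also genes of neurons, and the defining Merkel genes Atoh1 (515 and 430) and Krt20 (469 and 50.9) were not measured.

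The keratin genes lie in a cluster on chromosome 11 and another on chromosome 15, and the members could be read in their order there (RefSeq, GRCm38.p6). Of 54 keratin genes 48 had a probe set and 21 were measured, of which 18 were below 0, against 43.7% of all measured genes. Without the 10 members the count was 8 of 11. The 3 above 0 were Krt80, Krt6b and Krt222, the last named after its values were seen. With scaling on the median housekeeping signal 14 of 23 were below 0. The 43.7% does not apply there, since that scaling moved the median of all measured genes from 0.07 to 0.40. On chromosome 15 Krt4 is followed by Krt79, Krt78, Krt8 and Krt18, with log2 ratios of -2.25 for Krt4, -1.25 or lower for Krt79, whose second signal was under the floor, -0.59 for Krt78, -0.35 for Krt8 and -0.07 for Krt18. On chromosome 11 Krt13, Krt15 and Krt19 are neighbours, with -1.60, -0.96 and -0.51, and the next measured genes, Krt14 and Krt17, had -0.70 and -0.67, both below that of Krt19. On the other side of Krt4, Krt76 and Krt77 were under the floor on both arrays. The lowest ratio of a measured keratin in each cluster was that of the oral gene.

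**Figure D4:**
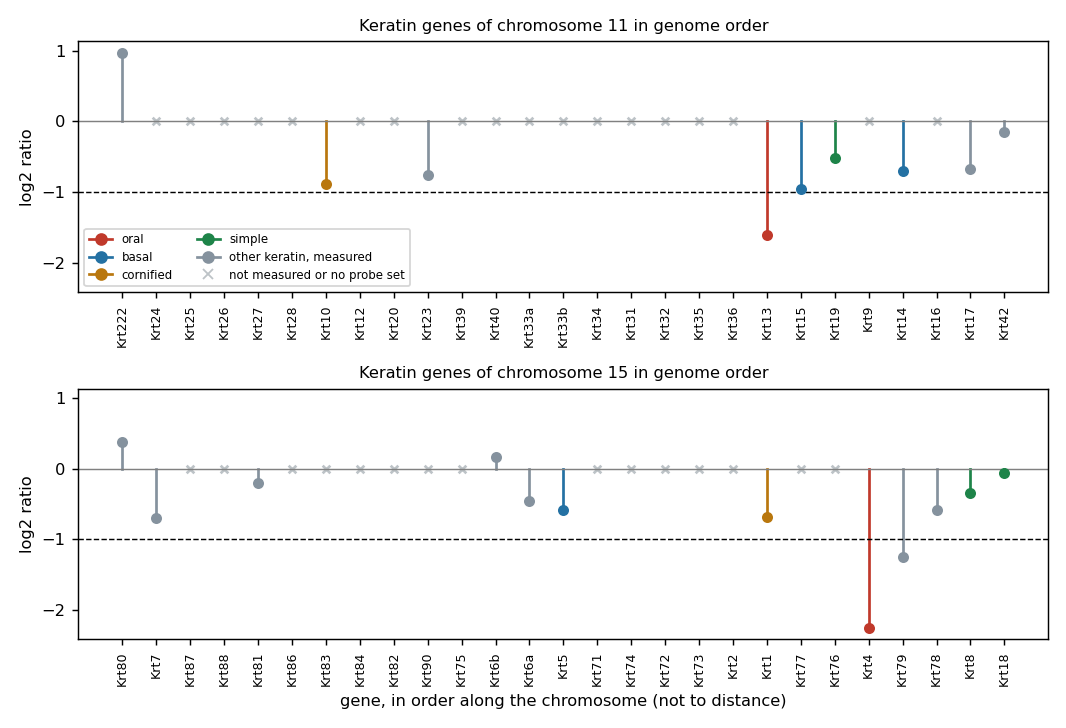
Log2 ratio (array labelled double null over wild type) of each measured keratin gene in its order along chromosomes 11 and 15, spaced by order and not by distance, with members coloured by class and crosses for genes that were not measured or had no probe set. Krt4 (-2.25) and Krt13 (-1.60) are the lowest points of their rows, and 18 of 21 measured genes are below 0. With scaling on the median housekeeping signal 14 of 23 are, Krt18 turns positive (0.25) and the median of all measured genes is 0.40.

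The choice of scaling shifted the members. Scaling on the median signal of 12 housekeeping genes gave every member its highest log2 ratio, with Krt4 at -1.93, Krt13 at -1.28, Krt18 at 0.25 and a median over the members of -0.37. Scaling on their median log2 ratio gave the lowest median, -0.82, with Krt4 at -2.38, while Krt5 (-0.77), Krt14 (-0.83) and Krt8 (-0.49) were lowest with quantile normalization and Krt13 (-1.78) with the mean over its probe sets. In each of the 13 alternatives that gave ratios, Krt4 and Krt13 were at least 2-fold lower.

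**Figure D5:**
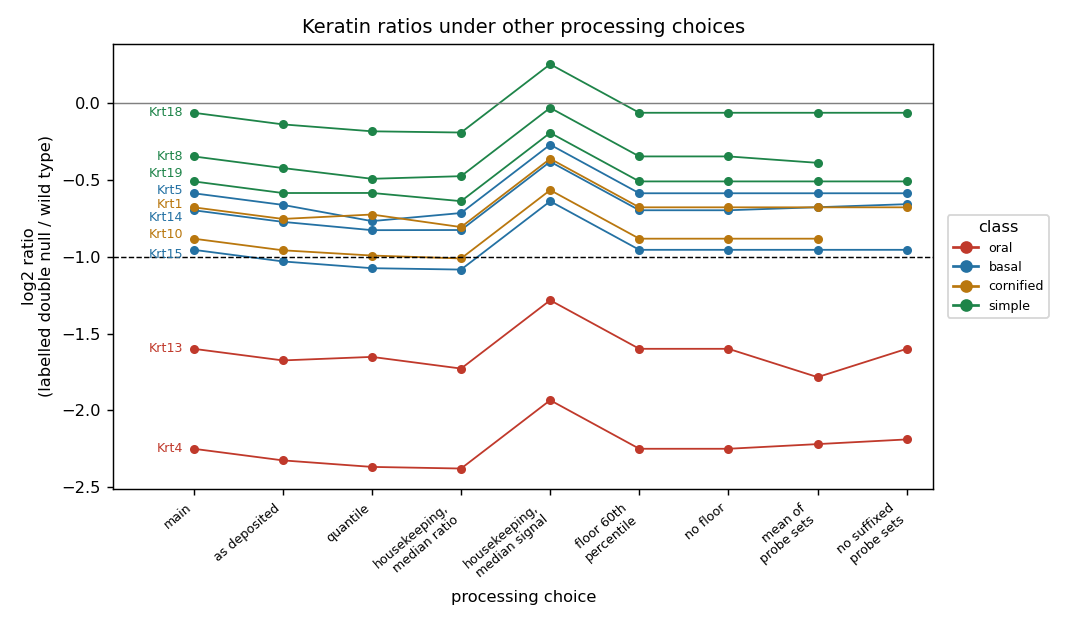
Log2 ratio of each of the 10 keratins under the main processing and 8 of the alternatives, coloured by class, with 0 and 2-fold lower marked. Krt4 and Krt13 stay below the 2-fold line throughout, Krt15 crosses it in 3 alternatives and Krt10 in 1, Krt18 lies above 0 (0.25) with scaling on the median housekeeping signal, and Krt8 and Krt10 have no value without suffixed probe sets.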

How the data were processed

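Total RNA (6 µg per sample) was labelled with biotin and hybridised, per the labels' protocols. The deposited values were linear MAS5 signal intensities made by the authors, per the submitters' processing notes; the version and scaling are not given in the sources used here. Of 45101 probe sets 64 were controls and were left out; 34945 had 1 gene, 932 several and 9160 none in the platform annotation. Each array was scaled by the median of those probe sets that reached the 50th percentile of the wild-type array and also of the other (factors 0.974 and 1.03). Floor, measured level and probe set choice are as stated above. Ratios are differences of log2 signals, computed here from the deposited intensities. The number of arrays limits the precision.

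The members and lists were chosen with earlier results of these data known. Named genes were all members, and up to 3 lowest and 3 highest measured genes per list; others are said to be so or stand as markers or neighbours. Alternatives changed scaling, floor, offset, probe set choice, filter and fold rule. The steps were tested on simulated data. Python 3.11.15, numpy 2.4.6, pandas 2.3.3 and matplotlib 3.10.9 were used.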

Additional observations from a re-analysis of the deposited data

How the results depend on the processing

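No paired analysis was possible because each genotype had 1 array, and no replicate could be left out. The count of members at least 2-fold lower was 2, and it was 2 or 3 in all alternatives but those named here: it was 4 with scaling on the median housekeeping ratio (Krt4, Krt13, Krt15 and Krt10) and 7 under a 1.5-fold rule. No member was at least 2-fold higher in any of the 15 alternatives. The median over the members ranged from -0.82 to -0.37 and that of the oral pair from -2.05 to -1.61. Krt18 alone changed sign, to 0.25, with scaling on the median housekeeping signal, which moved the median of all measured genes from 0.07 to 0.40. Of all genes past 2-fold 54.6% were lower, against 65.0% with the signals as deposited, 72.2% with scaling on the median housekeeping ratio and 16.7% with the housekeeping signal. Krt8 and Krt10 could not be read without suffixed probe sets, a rule that also left out probe sets for several transcripts of 1 gene.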

Other observations

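Keratins of hair and the root sheath were nearly all dim. Of 19 such genes with a probe set only Krt81 was measured, with 1309 in wild type against 1133. Krt71, Krt25, Krt28 and Krt35 lay under the floor on both arrays, as did the hair regulators Hoxc13 and Foxn1. Krt27 (633 and 78.1) and Krt26 (245 and 637) went opposite ways just under the minimum for a measured gene. Krt2, a late keratin of cornified skin, lay under the floor on both arrays (10.5 and 34.2).

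A probe set that the annotation gives to both Krt17 and Krt14 was left out of the members and lay under the floor on both arrays (20.4 and 198). Krt17, a keratin of periderm and appendages, had 4073 and 2555 by its own brightest probe set. Msx2, a homeobox gene of tooth and hair follicle, had 5429 and 1443, 3.76-fold lower, with -0.31 in its other probe set, while Lhx2 (0.79) and Dlx3 (0.96) of the same hair follicle list were higher; these genes are also active in tooth and nerve tissue of the jaw.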
